A study of Sus scrofa with 36 samples.

Results

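Cytokines, chemokines and their receptors were described in the mammary gland of 36 pigs. Members were the genes whose symbol begins with CCL, CXCL, CCR and a digit, CXCR, IL and a digit, TNF, or CSF and a digit, apart from TNFSF10. A gene had to have a probe set annotated with that symbol alone, and of several such probe sets the one brightest on average across all arrays stood for the gene. The rule picked 59 genes of the 6360 with such a probe set, or 71 probe sets of the 20792 on the array. They comprised 18 chemokine ligands, 5 chemokine receptors, 12 interleukins, 12 interleukin receptors or binding proteins, 2 ligands and 5 receptors of the TNF family, 4 TNF-induced or related proteins and 1 colony stimulating factor. The rule used names and mean levels and no difference between groups.

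Cytokines are small secreted proteins that carry signals between cells, and chemokines are the subset that guides the migration of leukocytes along concentration gradients. Most interleukin receptors signal through Janus kinases and STAT proteins, whereas receptors of IL-1 and TNF act largely through NF-kappaB. In the mammary gland these signals come from epithelium, stroma and resident leukocytes, and macrophages take part in duct growth in the mouse.

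The pigs were female Yucatan miniature swine aged 5 months, near puberty, with 1 array for each animal and 4 animals, lettered A to D, in each of 9 groups. Of these, 32 were ovariectomized, received bromocriptine for 8 days and then their assigned treatment for 5 days. Groups HEP, HE, HP and H received haloperidol in that period, a dopamine antagonist under which prolactin secretion goes up. Groups BEP, BE, BP and B stayed on bromocriptine, a dopamine agonist that lowers it. E marks added estrogen and P added progesterone. The 4 sham pigs, with intact ovaries, were given saline over 13 days. All 36 pigs received BrdU, a label of DNA synthesis, 24 hours before the end, and all 8 ovariectomized groups share the first course of bromocriptine. The comparison of haloperidol with bromocriptine therefore has no group on neither drug among the ovariectomized pigs.

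The deposited RMA values, whose base the labels do not state and which were read as log2, ranged from 1.55 to 13.74, with array medians of 7.83 to 7.91. Every fold below rests on that reading, and precision is limited by 4 animals per group. A member was called low in signal where its mean lay under the lower quartile of every array, the lowest of which was 5.90. This held for 17 of the 59 members, and detection was not measured. Animal A of BP stood apart from its group, at 70.0 on the first principal component, against -65.3 to -48.3 for the rest of BP. The HE and HEP arrays lay at 41.6 to 68.8. That animal was kept under its label, and whether the label is right was not settled. For members, leaving out animal A of BP was checked in the average effects, the interaction of estrogen with haloperidol and the pairs with BP. Where that turned a printed call, or a sign in a pair with BP, both are given. Values of markers, other genes and second probe sets are given only with that animal included. The tissue was whole gland, so fewer cells of a type and less RNA per cell cannot be told apart in any difference below. Luminal epithelial markers were measured for 9 of 10 listed genes, none of them low in signal, as fits the labelled tissue. Tests used limma with 1 mean for each group, and a member was called at an adjusted p under 0.05 over all probe sets.

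A difference among the 9 groups was called for 24 of the 59 members (40.7%) by the moderated F test of limma, where 28.4% of all probe sets passed. Among the 24 were 10 of 18 chemokine ligands, 2 of 5 chemokine receptors, 3 of 12 interleukins and 5 of 12 interleukin receptors or binding proteins. TNF family ligands gave 1 of 2 and TNF family receptors 3 of 5, while none of the 4 TNF-induced or related proteins and not CSF3 passed. Without animal A of BP the count was 32, against 38.1% of all probe sets.

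**Figure D1:**
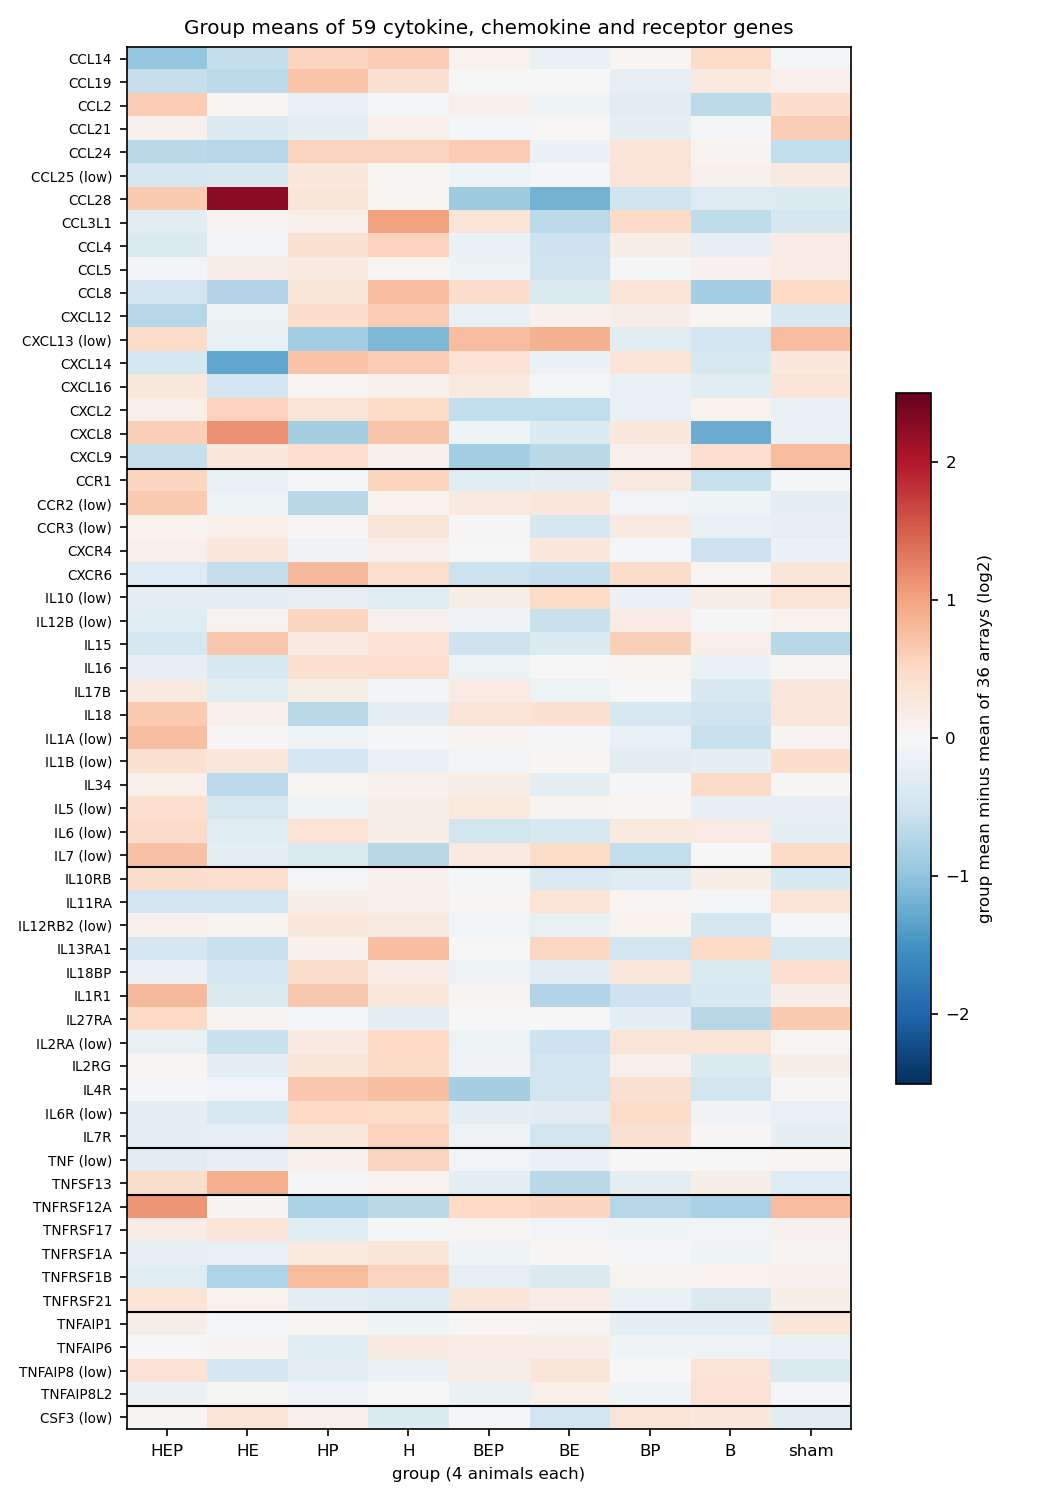
Each row is 1 of the 59 genes and each column 1 of the 9 groups of 4 animals; colour gives the group mean minus the mean of the 36 arrays on the log2 scale, lines separate the roles, and (low) marks the 17 members low in signal. CCL28 stood highest in HE, CXCL14 lowest in HE, and TNFRSF12A was above its mean in the 4 estrogen groups and in sham.

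Group B against sham asks about ovariectomy combined with bromocriptine, since the groups differ in both. In B, 0 members rose and 3 fell, where 1.56% of the array was called higher, 2.62% lower and 4.18% in either direction. The 3 were TNFRSF12A, the receptor of the cytokine TWEAK, IL27RA, a subunit of the IL-27 receptor, and CCL2, the main attractant of monocytes. In limma, 1 member was higher and 10 were lower at an unadjusted p under 0.05, or 1.69% and 16.9% of the members against 10.1% and 9.39% of all probe sets.

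TNFRSF12A read 9.31, 8.58, 8.50 and 8.79 in B pigs A to D, against 10.60, 9.79, 10.48 and 10.62 in sham pigs. IL27RA read 8.31, 9.19, 8.96 and 9.76 in B pigs, against 10.32, 10.22, 10.36 and 10.71 in sham pigs. CCL2 read 10.56, 10.78, 10.58 and 11.12 in B pigs, against 11.78, 11.37, 12.01 and 12.21 in sham pigs. For each of the 3 genes, every B pig lay below every sham pig, a separation that 5.2% of all probe sets showed. TNFRSF12A fell by 1.58 ± 0.25 (SE), which is 2.99-fold (limma adjusted p = 0.000287). IL27RA fell 2.54-fold (adjusted p = 0.000542 in limma) and CCL2 2.12-fold (0.00613 in limma).

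A second probe set of TNFRSF12A gave a change of -1.54 (limma adjusted p = 0.00131). CCL14 was the 1 member with every B pig above every sham pig, where 3.96% of all probe sets separated that way, and it was not called. With only the B and sham arrays in the fit, the adjusted p in limma was 0.0661 for CCL2 and 0.0672 for IL27RA. Without pig D of B, 5 members were called lower, IL17B and TNFRSF21 being added, and without pig B of sham IL15 was called higher and IL18BP lower. IL18, an interleukin of the IL-1 family that induces interferon gamma, had a change of -0.77 ± 0.25 that was not called (limma adjusted p = 0.0761). The median change of the members was -0.18, against 0.03 over all probe sets.

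Of the genes around these members, 0 of 25 measured signalling genes were called in B against sham, where 4.18% of all probe sets were called. MIF, a cytokine that restrains macrophage migration, was the 1 of 16 other cytokine system genes called. It fell by 0.94 ± 0.23 (limma adjusted p = 0.0142). LTF of the neutrophil markers and ACTA2 and CNN1 of the basal epithelial markers fell as well, and no marker of the other lists was called. The mean centred level of the neutrophil markers ranged from -0.90 to -0.46 in B, against -0.42 to 0.28 in sham, with no overlap. In that list LTF, also a milk protein, was at -2.55. S100A8, S100A9, S100A12 and ELANE were at -0.33, -0.26, 0.03 and -0.14 and were not called, S100A9 and ELANE being low in signal. The level of general leukocyte markers ranged from -0.95 to 0.03 in B, against -0.65 to 0.31 in sham. Luminal epithelial markers ranged from -1.51 to 0.65 in B, against -0.11 to 0.22 in sham. The lowest was animal A of B, the rest of B being at 0.01, 0.26 and 0.65. That animal had a skeletal muscle level of 6.89, against -1.17, 0.18 and 0.00 in B pigs B to D and -1.18 to 0.15 in sham. The part of these cells in the lower values of TNFRSF12A, IL27RA and CCL2 was not tested.

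The average effect of estrogen sets the 16 pigs given estrogen against the 16 ovariectomized pigs without it. With estrogen 10 members rose and 15 fell, or 42.4% of the members called against 35.1% of all probe sets. Over the whole array the shares were 17.5% higher and 17.6% lower. TNFRSF12A rose most, 2.45-fold, and CXCR6, the receptor of the chemokine CXCL16, fell most, 1.92-fold. Of the 25 members called, 8 were low in signal, 4 in each direction. Without animal A of BP, 11 were called higher and 23 lower, against 20.7% and 21.0% of all probe sets. The members added were IL1B as higher and CCL8, CXCL9, IL11RA, IL16, IL18BP, IL2RG, IL34 and TNFRSF1A as lower.

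In the chemokine ligands 2 of 18 rose and 7 fell. CCL4, CCL14, CCL19, CCL24, CCL25, CXCL12 and CXCL14 fell, and CCL2 and CXCL13 rose. CCL21, like CCL19 a ligand of CCR7, was at 0.03 ± 0.18 and was not called (limma adjusted p = 0.927). CCL14, an attractant of monocytes, had a lowest, median and highest value of 9.24, 10.76 and 11.79 with estrogen, against 10.29, 11.64 and 11.92 without it. The ranges overlapped, and 15 of 16 pigs with estrogen were below the mean of those without. The difference was -0.82 ± 0.15, or 1.77-fold lower (limma adjusted p = 9.83e-05).

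CCL19, a ligand of CCR7 that draws T cells and dendritic cells to lymphoid tissue, had a lowest, median and highest value of 7.31, 8.12 and 8.57 with estrogen, against 7.06, 8.67 and 9.67 without. Here the 16 pigs with estrogen all lay below the mean of the others, and the difference was -0.58 ± 0.13 (adjusted p = 0.0012 in limma). CXCL12, the ligand of CXCR4 made by stromal cells, fell by 0.56 ± 0.16 (adjusted p = 0.00847 in limma), and its second probe set gave a change of -1.34 (adjusted p = 1.62e-06). CXCL14, a chemokine of epithelium, fell by 0.70 ± 0.24 (limma adjusted p = 0.0254), but its second probe set, with r = 0.91 to the first over the 36 arrays, gave -0.29 (0.308). The call for CXCL14 thus depends on the probe set.

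The other ligands that fell were CCL24, an attractant of eosinophils (-0.60 ± 0.21), CCL4, an attractant of monocytes and T cells (-0.51 ± 0.18), and CCL25, the ligand of CCR9, which was low in signal (-0.43 ± 0.15). The call of CCL4 was lost on leaving out any of 6 single arrays and that of CCL24 without animal B of BP. CCL2 rose by 0.45 ± 0.12, or 1.37-fold (limma adjusted p = 0.00379). CXCL13, the attractant of B cells, rose by 1.17 ± 0.28 (limma adjusted p = 0.00185) and by 2.18 on its second probe set, and both probe sets were low in signal. The inflammatory ligands CXCL8 and CXCL2, attractants of neutrophils, were at 0.60 ± 0.27 and -0.31 ± 0.15 and were not called. CCL5, an attractant of T cells, was at -0.22 ± 0.12 and was not called (limma adjusted p = 0.172).

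**Figure D2:**
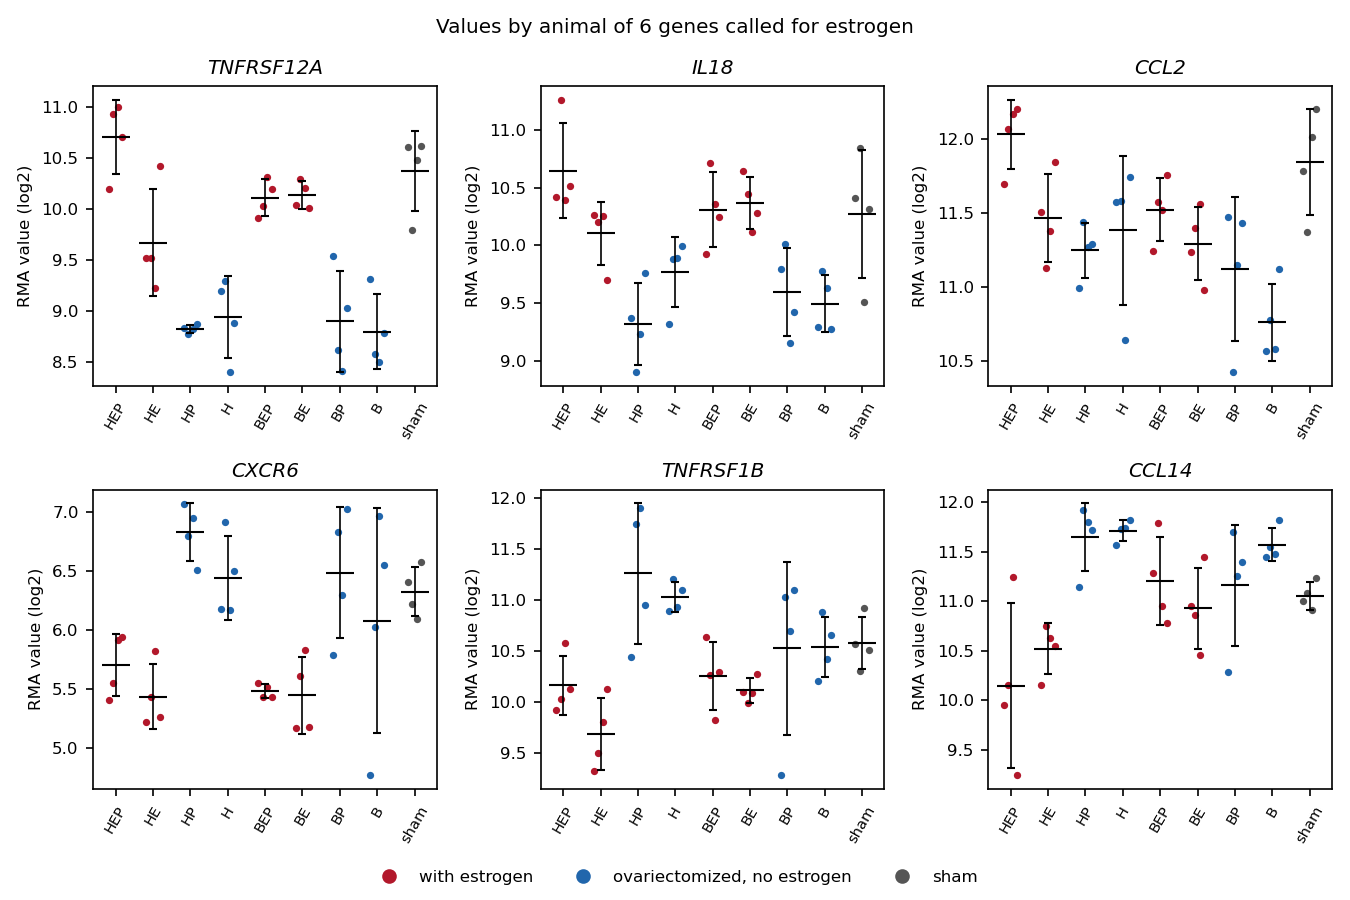
Points are single pigs, bars the group mean ± SD (n = 4), and the vertical axis the RMA value read as log2, for 6 genes called for the average effect of estrogen in the 9 groups from HEP to sham. TNFRSF12A, IL18 and CCL2 lay higher and CXCR6, TNFRSF1B and CCL14 lower in pigs with estrogen (red) than without (blue), with overlap in every panel.

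Of the 5 chemokine receptors 2 rose and 1 fell. CXCR6, carried by T cells and NK cells, had a lowest, median and highest value of 5.17, 5.47 and 5.94 with estrogen, against 4.76, 6.53 and 7.07 without. The 16 pigs with estrogen all lay below the mean of those without, and animal A of B, at 4.76, was below all of them. The difference was -0.94 ± 0.15 (limma adjusted p = 2.01e-05), whereas its ligand CXCL16 was at 0.07 ± 0.18 and was not called. CXCR4 rose by 0.29 ± 0.11 (limma adjusted p = 0.0415), but the call was lost on leaving out any of 16 single arrays. CCR2, the receptor of CCL2, rose by 0.45 ± 0.15 and was low in signal.

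Of the 12 interleukins 3 rose and 1 fell, and 7 were low in signal. IL18 had a lowest, median and highest value of 9.70, 10.32 and 11.26 with estrogen, against 8.90, 9.52 and 10.01 without. In all, 14 of 16 pigs with estrogen lay above every pig without it, and the rise was 0.81 ± 0.13, or 1.76-fold (limma adjusted p = 1.3e-05). IL18BP, the secreted protein that neutralizes IL-18, was at -0.39 ± 0.16 and was not called (limma adjusted p = 0.063). IL18BP was called lower without animal A of BP, at -0.44 (limma adjusted p = 0.0272).

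IL15, a growth factor of NK cells and memory T cells, fell by 0.47 ± 0.14 (adjusted p = 0.0119 in limma). IL7, a survival factor of lymphocytes, rose by 0.71 ± 0.19, and IL1A, interleukin 1 alpha, by 0.43 ± 0.17. Both were low in signal, and the call of IL1A was lost on leaving out any of 15 single arrays. IL1B, IL6 and IL10 were low in signal and not called, with differences of 0.43 ± 0.19, -0.41 ± 0.18 and 0.16 ± 0.21. IL1B was called higher without animal A of BP, at 0.48 (limma adjusted p = 0.0373).

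Of the 12 interleukin receptors and binding proteins 1 rose and 4 fell. IL4R, the alpha chain of the receptors of IL-4 and IL-13, had a lowest, median and highest value of 7.46, 8.48 and 9.09 with estrogen, against 7.88, 9.23 and 10.15 without. IL4R fell by 0.68 ± 0.16 (limma adjusted p = 0.00147), and 15 of 16 pigs with estrogen were below the mean of the others. IL7R, the receptor of IL-7, fell by 0.58 ± 0.19 where its ligand rose. IL2RA and IL6R, receptor chains of IL-2 and IL-6, fell by 0.68 ± 0.13 and 0.63 ± 0.16, both low in signal. IL27RA rose by 0.44 ± 0.11 (limma adjusted p = 0.00357). IL2RG, the common gamma chain shared by several interleukin receptors, and IL13RA1, a chain of the IL-13 receptor, were at -0.32 ± 0.17 and -0.33 ± 0.22 and were not called. IL2RG was called lower without animal A of BP, at -0.41 (limma adjusted p = 0.0283).

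In the TNF family, 2 receptors rose, 1 receptor fell and 1 of 2 ligands fell. TNFRSF12A had a lowest, median and highest value of 9.22, 10.19 and 11.00 with estrogen, against 8.40, 8.83 and 9.54 without. All 16 pigs with estrogen were above the mean of those without, and 13 were above every one of them. The rise was 1.29 ± 0.13 (limma adjusted p = 7.34e-09), the smallest adjusted p of the 59 members, and the second probe set gave 1.26. TNFRSF21, known as death receptor 6, rose by 0.49 ± 0.09 (limma adjusted p = 0.00014).

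TNFRSF1B, the second receptor of TNF and abundant on leukocytes, had a lowest, median and highest value of 9.33, 10.10 and 10.63 with estrogen, against 9.28, 10.91 and 11.90 without. It fell by 0.78 ± 0.15 (limma adjusted p = 0.000192), and animal A of BP, at 9.28, was the lowest of the 32. TNF itself fell by 0.34 ± 0.13 (limma adjusted p = 0.0406), was low in signal and lost its call on leaving out any of 16 single arrays. TNFRSF1A, the first receptor of TNF, was at -0.21 ± 0.10 and was not called (limma adjusted p = 0.0884). TNFRSF1A was called lower without animal A of BP, at -0.24 (limma adjusted p = 0.0461). None of the 4 TNF-induced or related proteins was called, and neither was CSF3, which encodes the granulocyte growth factor G-CSF.

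Leukocyte and tissue markers moved in the same comparison. Of the 9 measured macrophage markers of 12 listed, 0 rose and 3 fell with estrogen (CD14, MRC1 and TYROBP), and of 9 measured T and NK cell markers of 15 listed, 3 fell (CD3E, CD247 and KLRK1). General leukocyte markers gave 2 lower of 6 measured, and their mean centred level ranged from -0.49 to 0.24 with estrogen, against -0.95 to 0.90 without. The macrophage level ranged from -0.55 to 0.35 with estrogen, against -0.44 to 0.70 without, and the T and NK cell level from -0.57 to 0.23, against -0.44 to 0.79. MARCO, FCGR1A, CD2, CD3D, CD3G and LCK were low in signal. Endothelial markers gave 6 lower of 10 and adipocyte markers 5 lower of 7. Skeletal muscle markers gave 6 lower of 7, with a level of -1.76 to -0.78 with estrogen, against -1.45 to 6.89 without. Fibroblast, luminal epithelial and basal epithelial markers each gave 2 higher, neutrophil and keratinised skin markers each 1 higher (LTF and IVL), and mast cell, melanocyte and B and plasma cell markers 0. The part of these cells in the cytokine results was not tested. With animal A of B, animal B of B and animal A of BP set aside together, 9 members were higher and 18 lower with estrogen. Animals A of B and A of BP were among those high in muscle markers, and those 3 were chosen after their values were seen.

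The machinery downstream of the receptors was measured for 25 of 49 listed genes. With estrogen 2 of the 25 rose and 7 fell, where 17.5% and 17.6% of all probe sets were called (35.1% in all). SOCS1, an inhibitor of JAK signalling, rose by 0.90 ± 0.16 (limma adjusted p = 0.000104), and STAT5B, which prolactin and growth hormone activate, by 0.46 ± 0.17. JAK1, the kinase shared by many interleukin receptors, fell by 0.36 ± 0.08, and STAT6, through which IL4R acts, by 0.60 ± 0.18. STAT6 was low in signal. In the NF-kappaB and IL-1 or TNF branch, IKBKG fell by 0.72 ± 0.18, IRAK1 by 0.54 ± 0.16, NFKBIB by 0.50 ± 0.14, NFKBIA by 0.33 ± 0.11 and TRADD by 0.31 ± 0.11. Of these, NFKBIA and NFKBIB encode inhibitors of NF-kappaB, and the other genes carry its activation. Of 16 measured cytokine and receptor genes outside the naming rule, out of 49 listed, IFNAR1, a chain of the type I interferon receptor, rose by 0.69 ± 0.16. LTB, lymphotoxin beta, fell by 0.64 ± 0.14, and GHR, CD40 and IFNGR1 also fell.

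The same contrast was also taken within single backgrounds. HE against H gave 1 member higher and 11 lower, where 9.81% and 10.1% of all probe sets were called (19.9% in all). HEP against HP gave 6 higher and 6 lower, where 8.84% and 7.7% were called (16.5% in all). BE against B gave 3 higher and 0 lower, where 2.88% and 0.895% were called (3.78% in all), and BEP against BP gave 1 higher and 0 lower, where 0.587% and 0.197% were called (0.784% in all). Without animal A of BP the last pair gave 2 higher and 3 lower (TNFRSF12A and TNFRSF21, and CXCR6, IL15 and IL4R), where 6.28% and 4.98% of all probe sets were called. These lists were not tested against each other. TNFRSF12A was higher in all 4 backgrounds, by 0.73, 1.89, 1.35 and 1.21 in that order, each called. The difference of its effect between haloperidol and bromocriptine was 0.03 ± 0.25 (limma adjusted p = 0.961).

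Group BE was above B for IL18, at 10.64, 10.44, 10.12 and 10.28 in BE pigs, against 9.30, 9.78, 9.63 and 9.28 in B pigs. CXCR4 read 11.32, 11.97, 11.11 and 10.94 in BE pigs, against 10.46, 10.58, 10.86 and 10.35 in B pigs. In both genes every BE pig exceeded every B pig, and the differences of 0.88 ± 0.25 and 0.77 ± 0.23 were called (limma adjusted p = 0.0439 and 0.0481). This contrast and B against sham share the B animals. The share of all probe sets that separate fully was taken for B against sham and for no other pair of groups. TNFRSF12A averaged 10.14 in BE, 8.79 in B and 10.37 in sham, IL18 averaged 10.37, 9.49 and 10.27, and CCL2 averaged 11.29, 10.76 and 11.84 in the same order.

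The average effect of haloperidol sets the 16 pigs on haloperidol against the 16 on bromocriptine, drugs that raise and lower prolactin secretion. Prolactin levels were not part of the data used here. With haloperidol 5 members rose and 0 fell, where 3.85% and 3.13% of all probe sets were called (6.98% in all), and at an unadjusted p under 0.05 in limma 10 members were higher and 2 lower (16.9% and 3.39%, against 10.8% and 11.5% of all probe sets). None of the 5 was low in signal. They were CCL28, CXCL2, IL1R1, IL4R and TNFSF13, and they span chemokine ligands, interleukin receptors and a TNF ligand. Without animal A of BP, CCL2 and IL10RB were added as higher and IL11RA as lower, where the shares of all probe sets were 5.97% and 5.72%, and without pig D of B, CCL2 and IL27RA were added as higher.

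CCL28, a mucosal chemokine that draws IgA plasma cells to the lactating mammary gland in the mouse, changed most. HE pigs A to D read 11.39, 11.89, 11.46 and 11.04, and BE pigs 9.12, 7.48, 8.88 and 6.62. HEP pigs read 11.40, 10.62, 7.95 and 9.48, and BEP pigs 8.61, 7.95, 8.61 and 8.16. All HE pigs were above all BE pigs, while HEP and BEP overlapped.

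HP pigs read 11.54, 7.40, 8.37 and 10.72 for CCL28, against 11.72, 7.42, 7.24 and 8.48 in BP pigs, and H pigs 10.08, 9.01, 9.69 and 8.31, against 7.71, 9.68, 8.92 and 9.22 in B pigs. These 2 pairs of groups overlapped, and animal A of BP was the 1 bromocriptine pig that reached the level of HE. The average rise was 1.53 ± 0.40, or 2.89-fold (limma adjusted p = 0.0184), and 1.36 to 1.78 with each array left out. HE against BE gave 3.42 ± 0.81, or 10.7-fold (limma adjusted p = 0.00632). H against B gave 0.39 ± 0.81 and HP against BP 0.79 ± 0.81, neither called. Leaving out animal A of BP, HP against BP gave 1.79 ± 0.75, not called either (limma adjusted p = 0.78). The interaction of estrogen with haloperidol for CCL28 was 1.89 ± 0.81 and was not called (limma adjusted p = 0.141). Sham pigs read 8.96, 8.76, 9.34 and 8.46.

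**Figure D3:**
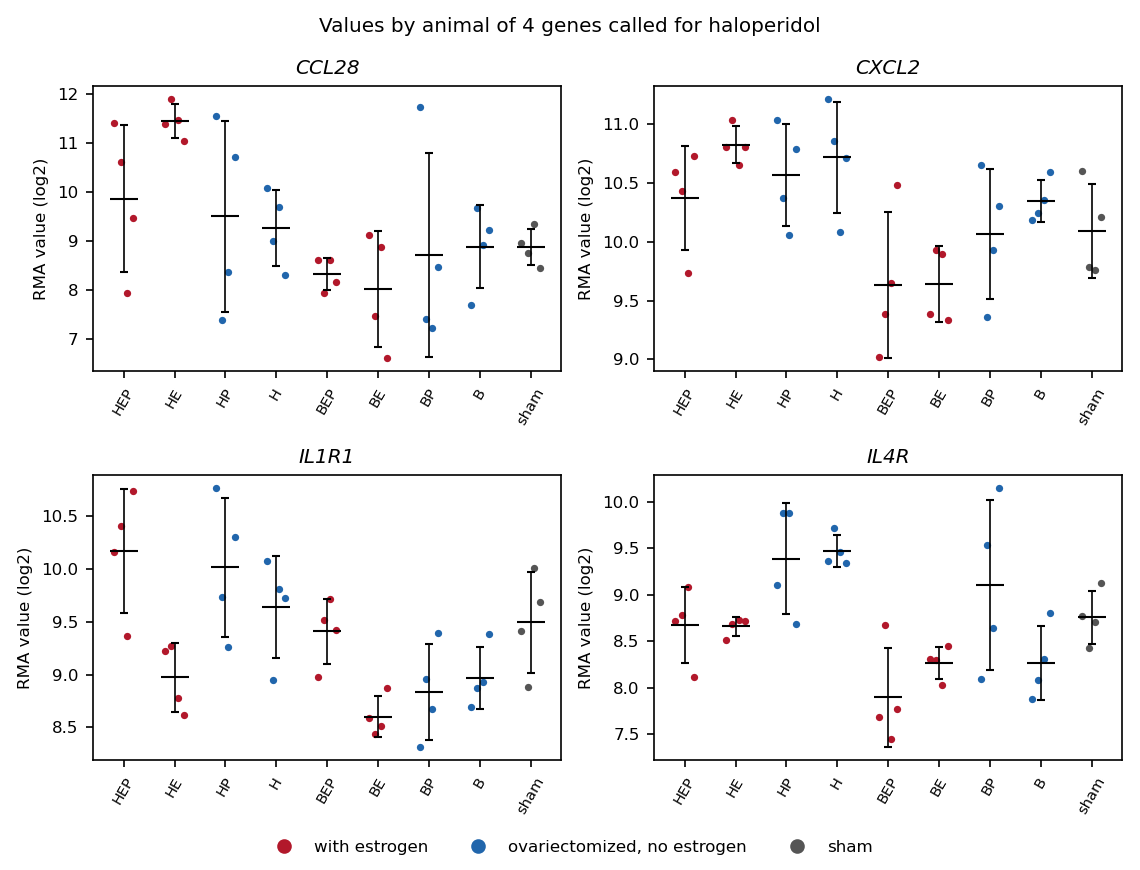
Points are single pigs, bars the group mean ± SD (n = 4), and the vertical axis the RMA value read as log2, for 4 of the 5 genes called for the average effect of haloperidol. The 4 HE pigs lie at 11.04 to 11.89 for CCL28, above all BE pigs, and animal A of BP lies at 11.72.

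CXCL2, which draws neutrophils, had a lowest, median and highest value of 9.73, 10.72 and 11.21 with haloperidol, against 9.02, 9.93 and 10.65 with bromocriptine. The 9 highest haloperidol pigs lay above every bromocriptine pig, and the rise was 0.70 ± 0.15 (limma adjusted p = 0.00331). CXCL8, of the same class, was at 0.75 ± 0.27 and was not called (limma adjusted p = 0.0878). IL1R1, the signalling receptor of IL-1, had a lowest, median and highest value of 8.62, 9.73 and 10.76 with haloperidol, against 8.31, 8.90 and 9.71 with bromocriptine. It rose by 0.74 ± 0.15 (limma adjusted p = 0.00273), and its second probe set, low in signal, gave 0.77 (adjusted p = 0.0206).

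IL4R was the 1 member called for both factors, lower with estrogen and higher with haloperidol. Its lowest, median and highest value was 8.12, 8.93 and 9.89 with haloperidol, against 7.46, 8.30 and 10.15 with bromocriptine. The rise was 0.66 ± 0.16 (limma adjusted p = 0.00925), and 15 of 16 haloperidol pigs were above the bromocriptine mean. Its estrogen effect was -0.81, -0.71, 0.00 and -1.21 in HE against H, HEP against HP, BE against B and BEP against BP, and none of those was called alone. BEP against BP gave -1.55 ± 0.31 and was called without animal A of BP (limma adjusted p = 0.00229). The interaction of estrogen with haloperidol for IL4R was -0.16 ± 0.32 (limma adjusted p = 0.803).

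TNFSF13, or APRIL, which supports plasma cells, had a lowest, median and highest value of 6.26, 6.97 and 8.62 with haloperidol, against 5.42, 6.48 and 7.42 with bromocriptine. The rise was 0.60 ± 0.17 (limma adjusted p = 0.0258) and 0.53 on a second probe set that was low in signal. JCHAIN, the joining chain of IgA and the 1 measured gene of 10 B and plasma cell markers, was at 0.56 with haloperidol and was not called. LTF, lactoferrin, listed as a neutrophil marker and also a milk protein, rose 3.24-fold and was the 1 of 5 measured neutrophil markers called. S100A9 and ELANE of that list were low in signal, and its mean centred level ranged from -0.26 to 1.35 with haloperidol, against -0.90 to 0.34 with bromocriptine. CLDN3, a tight junction gene, was the 1 of 9 measured luminal epithelial markers called, higher by 0.80 ± 0.17. The part of those cells in the rises of CCL28, CXCL2 and TNFSF13 was not tested.

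**Figure D4:**
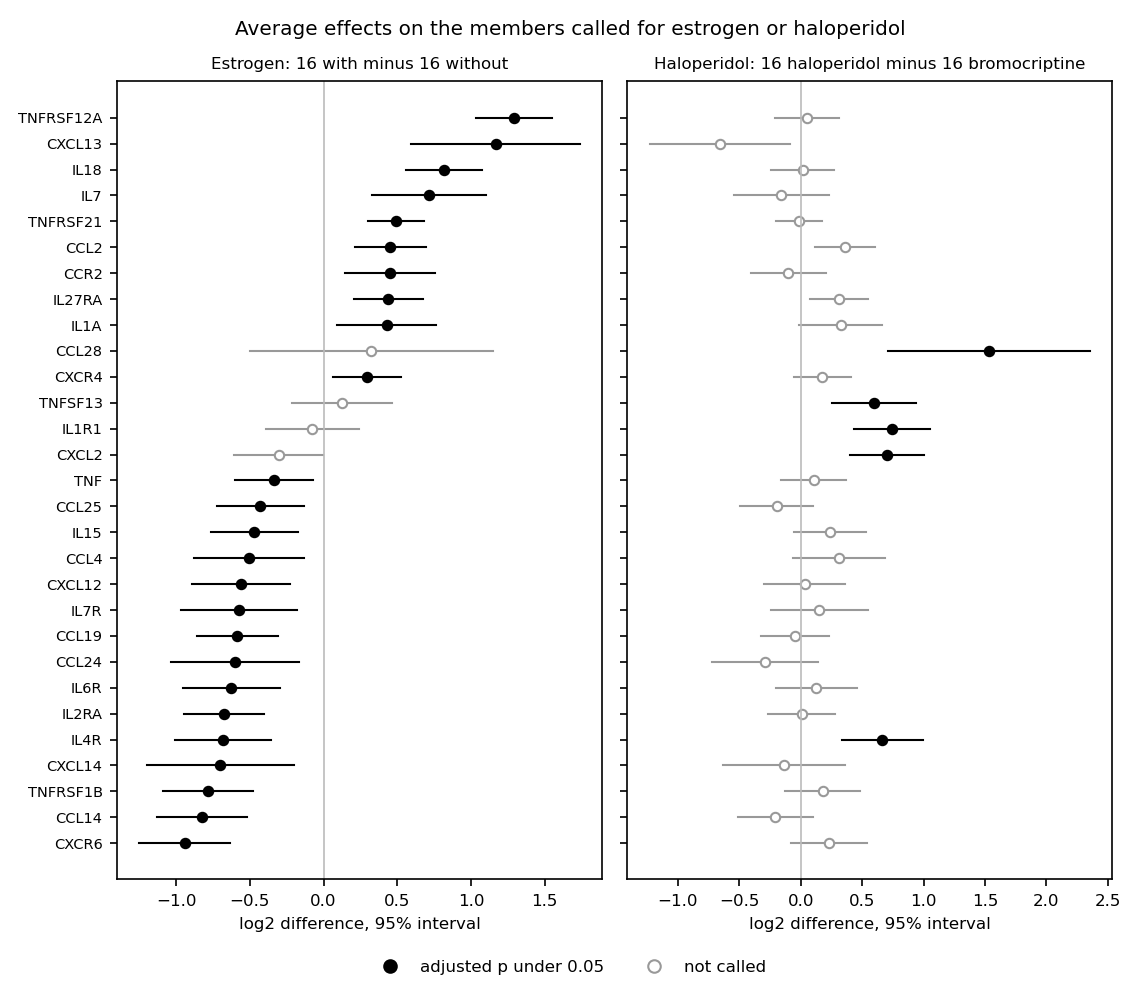
Average effect of estrogen (left) and of haloperidol (right) on the 29 members called for either, as a log2 difference with its 95% interval, 16 against 16 pigs; filled points passed an adjusted p of 0.05. IL4R is filled on both sides, below 0 for estrogen and above 0 for haloperidol.

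Among the downstream genes, 4 of 25 rose and 1 fell with haloperidol, where 3.85% and 3.13% of all probe sets were called. STAT5B rose by 1.06 ± 0.17 and STAT5A by 0.95 ± 0.15, the transducers of prolactin, and SOCS1 by 0.61 ± 0.16 and NFKBIB by 0.47 ± 0.14. JAK2, the kinase of the prolactin receptor, fell by 0.57 ± 0.17 (limma adjusted p = 0.0371). Of the 16 other cytokine system genes 2 rose, LTB by 0.71 ± 0.14 and IFNAR2, a chain of the type I interferon receptor, by 0.36 ± 0.10. LTB was thus lower with estrogen and higher with haloperidol, as was NFKBIB.

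The interaction of estrogen with haloperidol is the estrogen effect on haloperidol minus that on bromocriptine. It was called for 6 members, 2 higher and 4 lower, or 10.2% of the members against 7.48% of all probe sets (3.87% higher and 3.62% lower). The 4 lower were 3 chemokine ligands, CXCL14, CCL19 and CCL14, and IL11RA, the receptor chain of IL-11. The 2 higher were TNFSF13 and CSF3. Without pig B of HP, 0 members were called higher and 1 lower, where the shares of all probe sets were also smaller, at 2.49% and 2.23%. Without pig D of BE the counts were 0 and 1 (2.48% and 2.27% of all probe sets), and without animal A of BP 0 and 2 (2.52% and 2.43%). CCL19 kept its call without each array and in the other settings tried.

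For CCL19, HE pigs read 7.31, 7.63, 7.66 and 8.18, against 8.93, 8.76, 8.53 and 8.68 in H pigs. HEP pigs read 8.06, 7.80, 7.68 and 7.50, against 8.61, 9.67, 9.15 and 8.69 in HP pigs. On bromocriptine, BE pigs read 8.33, 8.21, 8.26 and 8.57, against 8.66, 8.95, 8.44 and 8.29 in B pigs, and BEP pigs 8.56, 8.30, 7.97 and 8.51, against 7.06, 8.15, 8.90 and 8.44 in BP pigs. Estrogen groups lay wholly below their partners on haloperidol and overlapped them on bromocriptine. The effects were -1.03, -1.27, -0.24 and 0.19 in that order, the last being -0.17 ± 0.24 without animal A of BP, and the interaction was -1.12 ± 0.27 (limma adjusted p = 0.0129).

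CXCL14 read 8.86, 8.32, 9.82 and 9.61 in HE pigs, against 10.07, 11.43, 11.12 and 11.75 in H pigs. It read 10.23, 10.12, 10.32 and 10.59 in BE pigs, against 9.12, 9.98, 10.04 and 11.05 in B pigs. Every HE pig lay below every H pig, and BE and B overlapped. HE against H was -1.94 ± 0.49, or 3.83-fold lower (limma adjusted p = 0.00578), and BE against B was 0.27 ± 0.49. The interaction was -1.68 ± 0.49 (limma adjusted p = 0.0338) and -1.42 on the second probe set (adjusted p = 0.0402). On leaving out any of 10 single arrays the first was not called. Among these was animal A of BP, without which the first probe set gave -1.42 (limma adjusted p = 0.0602).

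CCL14 gave effects of -1.20 in HE against H and -1.50 in HEP against HP, both called, and -0.64 and 0.04 on bromocriptine, neither called. The last was -0.25 ± 0.30 without animal A of BP. Its interaction was -1.05 ± 0.30 (limma adjusted p = 0.0317), lost on leaving out any of 4 single arrays. Without animal A of BP the interaction of CCL14 was -0.90 and not called (limma adjusted p = 0.056). IL11RA gave -0.61 in both haloperidol backgrounds and 0.39 and -0.02 on bromocriptine, with an interaction of -0.80 ± 0.22 (limma adjusted p = 0.0269). The IL11RA interaction was not called without pig B of HP or without pig D of BE (limma adjusted p = 0.0510 and 0.0514). TNFSF13 was at 0.80 and 0.50 on haloperidol and at -0.82 and 0.00 on bromocriptine, none of them called. Its interaction of 1.06 ± 0.33 (limma adjusted p = 0.0466) was lost on leaving out any of 25 single arrays, and its second probe set gave 0.48 (adjusted p = 0.243). Leaving out animal A of BP gave 0.91 for TNFSF13, not called (limma adjusted p = 0.0858). CSF3, low in signal, was at 0.86 ± 0.27 (limma adjusted p = 0.0484) and was lost on leaving out any of 23 single arrays. For CSF3 the value without animal A of BP was 0.81, not called (limma adjusted p = 0.0815).

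**Figure D5:**
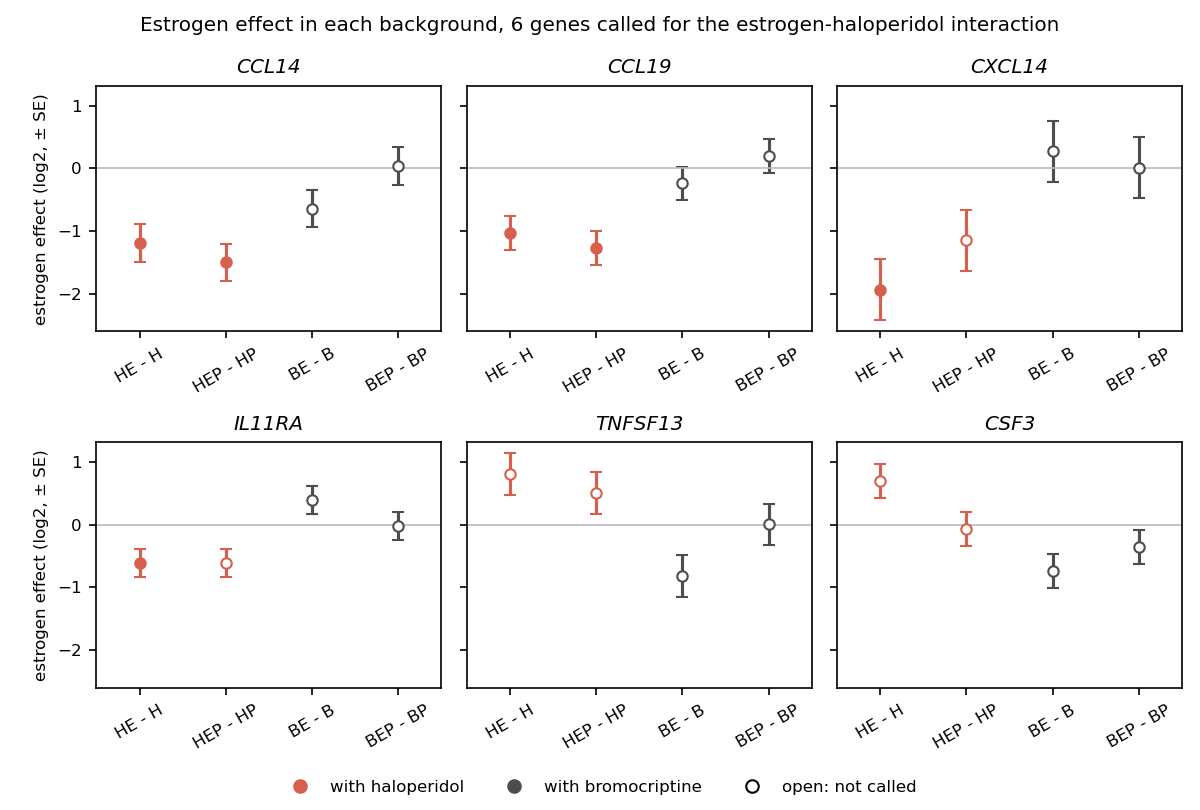
Estrogen effect ± SE (log2, 4 against 4 pigs) in HE against H, HEP against HP, BE against B and BEP against BP for the 6 members called for the interaction; filled points were called for that pair of groups. CCL14 and CCL19 lie below -1 in both haloperidol pairs, while no bromocriptine pair was called for any of the 6 genes.

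Markers of other cells were called for this interaction too. Macrophage markers gave 3 lower of 9 (C1QA, C1QC and MRC1), with a mean level of -0.27 in HE, 0.43 in H, -0.29 in HEP and 0.22 in HP, beside -0.10 in BE, -0.13 in B, 0.04 in BEP and 0.09 in BP. Adipocyte markers gave 4 lower of 7 and endothelial markers 2 lower of 10, while CLDN3 of the luminal epithelial markers was higher. Downstream genes gave STAT5A at 1.06 ± 0.30, STAT5B at 1.45 ± 0.34 and JAK2 at -1.35 ± 0.34, all called in limma. The part of these cells in the chemokine results was not tested.

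In haloperidol contrasts within single backgrounds, HE against BE called 5 members higher and 1 lower, where 5.46% and 5.05% of all probe sets were called (10.5% in all). Besides CCL28 these were TNFSF13 (1.56 ± 0.33), CXCL2 (1.19 ± 0.30), IL15 (1.01 ± 0.29) and CSF3 (0.82 ± 0.27) on the higher side and IL11RA (-0.83 ± 0.22) on the lower. IL15 read 7.74, 8.71, 7.75 and 7.46 in HE pigs, against 7.19, 6.89, 6.56 and 6.98 in BE pigs, with no overlap. H against B, HP against BP and HEP against BEP called 0 members in limma, where 0.0337% (0.0289% higher, 0.00481% lower), 0% and 1.08% (0.635% higher, 0.447% lower) of all probe sets were called. At an unadjusted p under 0.05 in limma, H against B had 13 members higher and 1 lower (22.0% and 1.69%, against 5.2% and 5.33% of all probe sets). HP against BP had 4 members in all (6.78%, against 4.84% of all probe sets) and HEP against BEP 13 (22.0%, against 14.3%). IL4R, at 1.20 ± 0.32 in H against B, had an adjusted p of 0.147 in limma.

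The average effect of progesterone sets the 16 pigs given progesterone against the 16 ovariectomized pigs without it. It gave 0 calls in either direction in limma, where 0.0914% of all probe sets were called (0.077% higher, 0.0144% lower), and 6 members (10.2%) were at an unadjusted p under 0.05, against 4.92% of all probe sets. Array weights in limma called 1 member higher. IL1R1 stood at 0.56 ± 0.15 (limma adjusted p = 0.328), IL17B, a cytokine of the IL-17 family, at 0.36 ± 0.12 and IL13RA1 at -0.50 ± 0.22. Of the 59 members, IL1R1 had the largest positive value, followed by CXCL14 at 0.55 ± 0.24, and IL13RA1 the largest negative one. The interaction of estrogen with progesterone gave 0 calls in limma, where 0.25% of probe sets were called (0.164% higher, 0.0866% lower), with 4 members (6.78%) at an unadjusted p under 0.05 against 10.4% of all probe sets, led by IL1R1 at 0.87 ± 0.31. The interaction of progesterone with haloperidol and that of all 3 factors also gave 0 calls in limma, where 0% of probe sets were called, with 5 and 7 members (8.47% and 11.9%) at an unadjusted p under 0.05, against 4.67% and 4.42% of all probe sets.

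Members also varied together among animals of the same group. Over the 36 arrays, each taken as its deviation from the group mean, IL2RG and TNFRSF1B correlated with r = 0.86, CXCL14 and IL16, an attractant of CD4 T cells, with r = 0.78, and IL16 and TNFRSF1B with r = 0.78. CCL28 ran against IL11RA (r = -0.68) and TNFRSF1B (r = -0.67). The median over the 861 pairs of members not low in signal was 0.09. Against the marker levels, IL2RG followed general leukocytes (r = 0.84), TNFRSF1B macrophages (r = 0.84), CCL5 T and NK cells (r = 0.70) and IL27RA luminal epithelium (r = 0.75). These were not exclusive. TNFRSF1B had r = 0.83 with general leukocytes and 0.65 with endothelium, and IL2RG had r = 0.66 with macrophages and with T and NK cells. The points of each pair share an array and a tissue sample, and no test was made. All 36 arrays entered, and no r was taken with an array left out. Animal A of BP was the highest of BP for CCL28 and the lowest of BP for TNFRSF1B. Animal A of B was the lowest of B for IL27RA and for the luminal epithelial level. How far these r values rest on those animals was not tested.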

How the data were processed

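Mammary RNA of each animal went onto a porcine Affymetrix array of its own. Per the submitters' processing notes, the authors used RMA to obtain one value per probe set, and the deposited values were read here as log2. The RMA version is not given in the sources used here. Values were used as deposited. Groups came from the treatment labels.

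limma 3.58.1 in R 4.3.3 fitted 1 mean for each of 9 groups to 36 arrays (27 residual and 4.16 prior degrees of freedom). The two-sided p-values were adjusted by Benjamini and Hochberg over 20792 probe sets within each comparison, and an adjusted p under 0.05 was called. The model was tested on simulated data. Average effects weight the backgrounds equally.

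The members, gene lists and alternatives were chosen with earlier results of these data known. All called members were named, up to 15 in each direction, with fixed genes of which 18 were measured. The remaining genes of that fixed list were not analysed here. Marker levels are means of values centred over the 36 arrays. Markers covered macrophages, leukocytes, T and NK, B and plasma cells, neutrophils, mast cells, endothelium, adipocytes, fibroblasts, luminal and basal epithelium, muscle, keratinised skin and melanocytes. Lists of signalling genes and of other cytokine genes were added. Of the 59 gene identifiers all matched the reference table, and 2 probe sets with several symbols were left out. No sequences or coordinates were used here.

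Letters A to D were checked as possible pairs. Deviations of arrays with the same letter correlated at 0.037 on average (-0.414 to 0.457, 144 pairs), so letters were not in the model. Alternatives were a second quantile normalization, median centring, robust moderation with a trend of the variance, weights for arrays, the letter as a block (fixed, or random with statmod 1.5.0), leaving out dim probe sets, 1 probe set per gene, only the groups compared, a difference of at least 1, and each array left out. Figures used matplotlib 3.10.9.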

Additional observations from a re-analysis of the deposited data

Results flagged for a closer look

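Within groups, the highest or lowest of 4 animals stood apart from the other 3 by Dixon's ratio in 22 of 351 group and gene combinations, over 39 genes. Chance gives about 1 in 20, or 17.55. Animal C of BE held 3 of them, animals A of H, C of H and C of HP held 2 each, and no other animal held more than 1.

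In H, animal C was at 10.64 for CCL2 (others 11.57 to 11.74) and at 10.04 for TNFRSF1A (others 10.49 to 10.55), and animal A was at 9.32 for IL18 (others 9.88 to 9.99) and at 10.21 for TNFRSF21 (others 10.60 to 10.63). In HP, animal C was at 6.95 for IL15 and at 3.20 for IL1A. In HE, animal D was at 9.70 for IL18, animal A at 2.99 for IL6R and animal C at 5.28 for TNF, and in HEP animal B was at 11.26 for IL18 (others 10.39 to 10.51).

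In the bromocriptine groups, animal C of BE was at 10.10 for IL27RA, at 5.05 for IL2RA and at 4.75 for IL10, and animal A of BE at 3.33 for IL1A. Animal A of BEP was at 6.95 for CXCL13 (others 4.20 to 4.67). Animal C of BP was at 5.11 for CXCL8 (others 7.14 to 7.31) and animal A of BP at 4.83 for IL7R (others 6.64 to 6.84). Animal A of B was at 3.24 for CXCL8 (others 5.74 to 6.05) and animal C of B at 3.10 for IL1A. In sham, animal D was at 11.44 for CXCL14, animal C at 11.72 for CXCR4 (others 10.63 to 10.71) and animal B at 9.79 for TNFRSF12A (others 10.48 to 10.62).

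The estrogen effect differed between haloperidol and bromocriptine by the interaction term in limma for CXCL14 (-1.68), CCL19 (-1.12), CCL14 (-1.05), IL11RA (-0.80), TNFSF13 (1.06) and CSF3 (0.86).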

How the results depend on the processing

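Of the 39 gene calls in 6 comparisons, 28 held in each other setting scored for them, 29 without each array and 26 in both. The direction changed in 0 calls. At most 10 settings were scored for a call (normalization, moderation, weights, block, dim filter, probe sets, groups and arrays set aside). Members removed by the dim filter were not scored in that setting. Interactions were not refitted with only the groups compared. The requirement of a difference of at least 1 is not among those 10 and is given separately. Counts of members called moved as follows. Without dim probe sets, estrogen gave 6 higher and the interaction of estrogen with haloperidol 1 higher. That interaction also gave 1 higher with median centring and with a variance trend and robust moderation. Array weights gave B against sham 2 higher and 6 lower, haloperidol 9 higher and 1 lower, progesterone 1 higher and any difference among the 9 groups 41. With only the groups compared, B against sham gave 1 lower. With a difference of at least 1 required, estrogen gave 2 higher and 0 lower, haloperidol 1 higher and the interaction 1 higher. With animals A and B of B and A of BP set aside, chosen after seeing the data, the interaction gave 0 higher and 1 lower. With the replicate block as a fixed term, the interaction gave 0 higher and 5 lower, and estrogen 10 higher and 16 lower. Only 14 of 36 arrays lay closest to their own letter. Leaving out each array gave 0 to 1 higher and 3 to 5 lower for B against sham, 8 to 11 higher and 13 to 23 lower for estrogen, 5 to 7 higher and 0 to 1 lower for haloperidol, 0 to 2 higher and 1 to 6 lower for the interaction, 0 for progesterone and for estrogen with progesterone, and 21 to 32 for any difference. The causes were not tested. Detection above background was not measured, which limits what the 17 low members can show.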

Other observations

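Of the 3 probe sets of IL17B, the third did not move with the one used. The second had r = 0.69 with the one used and gave -0.43 in B against sham and 0.09 for estrogen, called in neither. The third had r = -0.03 with the one used over the 36 arrays and gave 1.49 in B against sham (limma adjusted p = 0.0184) and -0.61 for estrogen (adjusted p = 0.0112), where the one used gave -0.66 and 0.09 and was called in neither.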
